A study of Mus musculus with 6 samples.

Results

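The mRNAs of 10 genes of the pluripotency network of mouse embryonic stem (ES) cells were followed through a map of RNA–RNA contacts: Pou5f1, Sox2, Nanog, Esrrb, Klf4, Sall4, Tdgf1, Dppa5a, Lin28a and Dnmt3b. The members were taken by name: a read pair belonged to the set when the annotated name of either of its RNAs was one of these 10 genes. Of the 5581375 distinct read pairs in the 4 libraries of cultured cells, 3068 named a member (6206 deposited lines before equal coordinates were counted once). ES-1 held 905 (of 2310134), ES-2 435 (of 1241787), ES indirect 1660 (of 1655476) and MEF 68 (of 373978).

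In MARIO, RNAs are crosslinked to the proteins that hold them, the proteins are immobilised on beads, a biotin-tagged linker is joined to RNA ends, and neighbouring ends are ligated, so that each sequenced molecule carries a first fragment (RNA1), the linker and a second fragment (RNA2). ES-1 and ES-2 are assays on E14 ES cells of strain 129/Ola, grown without feeder cells in serum and LIF, irradiated with ultraviolet light of 254 nm and cut by RNase I to about 1000 nt per the labels. For ES-1 the study's methods give a range that reaches longer fragments. Ribosomal RNA was removed from ES-1 by a duplex-specific nuclease and from ES-2 by the GeneRead kit. ES indirect was made from the same line with formaldehyde and EGS, which also link protein to protein, and differs in being sonicated to about 1000 nt, with nuclease depletion. MEF was made from C57Bl/6 mouse embryonic fibroblasts, irradiated at 254 nm, cut to about 300 nt and depleted with the GeneRead kit. MEF therefore differed from the ES libraries in strain, fragment size and, from ES-1 and ES indirect, in depletion, from ES indirect also in crosslinking and cutting. ES-1 and ES-2 were sequenced on the same flow cells and ES indirect and MEF on others, so flow cell differed too between ES-1 or ES-2 and either of the others, and all these differences cannot be told apart from the cell type. ES indirect and MEF had 1 library each, the study calls ES-1 and ES-2 independent assays, with no word in the sources used here on separate cultures, and no test between groups was made.

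Pou5f1 (Oct4), Sox2 and Nanog are the transcription factors at the centre of the circuit that keeps ES cells undifferentiated; they bind many of the same enhancers and sustain each other's transcription. Esrrb, an orphan nuclear receptor, and the zinc finger proteins Klf4 and Sall4 are factors joined to that circuit. Tdgf1 (Cripto) is the cell surface co-receptor of Nodal, Dppa5a is a KH-domain RNA-binding protein of early embryos and germ cells, Lin28a binds RNA and blocks maturation of let-7, and Dnmt3b methylates DNA de novo. Apart from Klf4, which many differentiated cells also make, these genes are known to be silent or low in fibroblasts.

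The libraries differed in how securely an end could be placed. The share of RNA1 fragments whose bases lay on the stated mm9 position, with up to 15% mismatches, was 89.7% for ES-1, 75.4% for ES-2, 88.8% in ES indirect but 60.8% in MEF. A piece of the linker was still attached to 49.2% of RNA1 fragments in MEF and to between 2.33% and 8.07% in the other libraries, and in 32.1% of MEF read pairs both fragments shared 14 bases, against at most 5.37% elsewhere. An end is called placed below when its sequence lay on the stated position, was at least 20 nt long, held no piece of the linker and no ribosomal 16-mer, and did not share 14 bases with a partner named as another RNA. By this measure ES-1 had 888 of 972 member ends placed, ES-2 374 of 447, ES indirect 2270 of 2340 and MEF 6 of 70. Over all protein-coding genes 52.3%, 23.5%, 83.5% and 5.78% of ends met these criteria, the ribosomal one left aside. Few MEF ends were thus placed among all genes as well. Only 1 member read pair had the same coordinates in ES-1 and ES-2, and none was shared by any other pair of libraries.

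The 10 mRNAs were seen in every ES library. Levels are given as distinct read pairs of a gene per 1000000 distinct read pairs with at least 1 non-ribosomal end (ppm), with exact Poisson 95% intervals that cover counting error only. Together the members reached 573 (536–612) in ES-1, 479 (435–526) with ES-2, 1493 (1422–1567) by indirect crosslinking and 198 (154–251) in fibroblasts. ES-1 was somewhat above ES-2, with intervals that did not overlap, ES indirect was the highest and MEF the lowest. Levels summed over all protein-coding genes were 2.67e+05, 4.51e+05, 7.17e+05 and 6.73e+05 ppm, so these too were highest in ES indirect. By placed sense exonic ends, given further on, the members were lower in ES indirect (5328 ppm of such ends) than in ES-1 (6306) and ES-2 (6294). In bulk samples such as these, fewer cells that make an mRNA and less of it in each cell cannot be told apart.

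Pou5f1 (chr17:35642982-35647721, plus strand, NCBIM37) gave 87 distinct read pairs in ES-1, 38 with ES-2, 101 by indirect crosslinking and 3 in fibroblasts, an order kept in the sentences that follow, or 55.1, 41.9, 90.9 and 8.75 ppm. Sox2, an HMG-box factor encoded by a single exon (chr3:34548927-34551383, plus strand), gave 178, 110, 120 and 6, or 113, 121, 108 and 17.5 ppm. For Sox2 the 3 ES libraries were within each other's intervals, the lowest lower bound being 89.5 and the highest upper bound 146. Nanog (chr6:122657507-122664651, plus strand) gave 52, 15, 50 and 3, or 32.9, 16.5, 44.98 and 8.75 ppm. The MEF counts of Pou5f1 and Nanog, 3 each, equal the floor of 3 counts set here for a library at 0.

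Esrrb (chr12:87702067-87862578, plus strand) stood apart from the other 9 members. It gave 176, 98, 869 and 17 read pairs, or 111, 108, 782 and 49.6 ppm. It supplied 869 of the 1660 member read pairs of ES indirect, so totals over the 10 genes in that library are given with this in mind. Klf4 (chr4:55540013-55545347, minus strand) gave 50, 31, 44 and 12, or 31.7, 34.2, 39.6 and 35.0 ppm, with intervals that overlapped in all 4 libraries. Sall4 (chr2:168573832-168593443, minus strand) gave 85, 31, 80 and 15, or 53.8, 34.2, 72.0 and 43.7 ppm.

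Tdgf1 (chr9:110842114-110848662, minus strand) gave 126, 58, 127 and 2 read pairs, or 79.8, 63.9, 114 and 5.83 ppm. These counts include Tdgf1 ends that held ribosomal sequence, 26, 10, 10 and 1. Dppa5a (chr9:78214859-78215984, minus strand) gave 91, 28, 165 and 1, or 57.6, 30.8, 148 and 2.92 ppm, and was higher in ES indirect than in both other ES libraries. Lin28a (chr4:133559245-133574756, minus strand) gave 39, 11, 52 and 6, or 24.7, 12.1, 46.8 and 17.5 ppm. Dnmt3b (chr2:153475186-153513466, plus strand), the least seen member, gave 21, 15, 52 and 3, or 13.3, 16.5, 46.8 and 8.75 ppm.

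**Figure D1:**
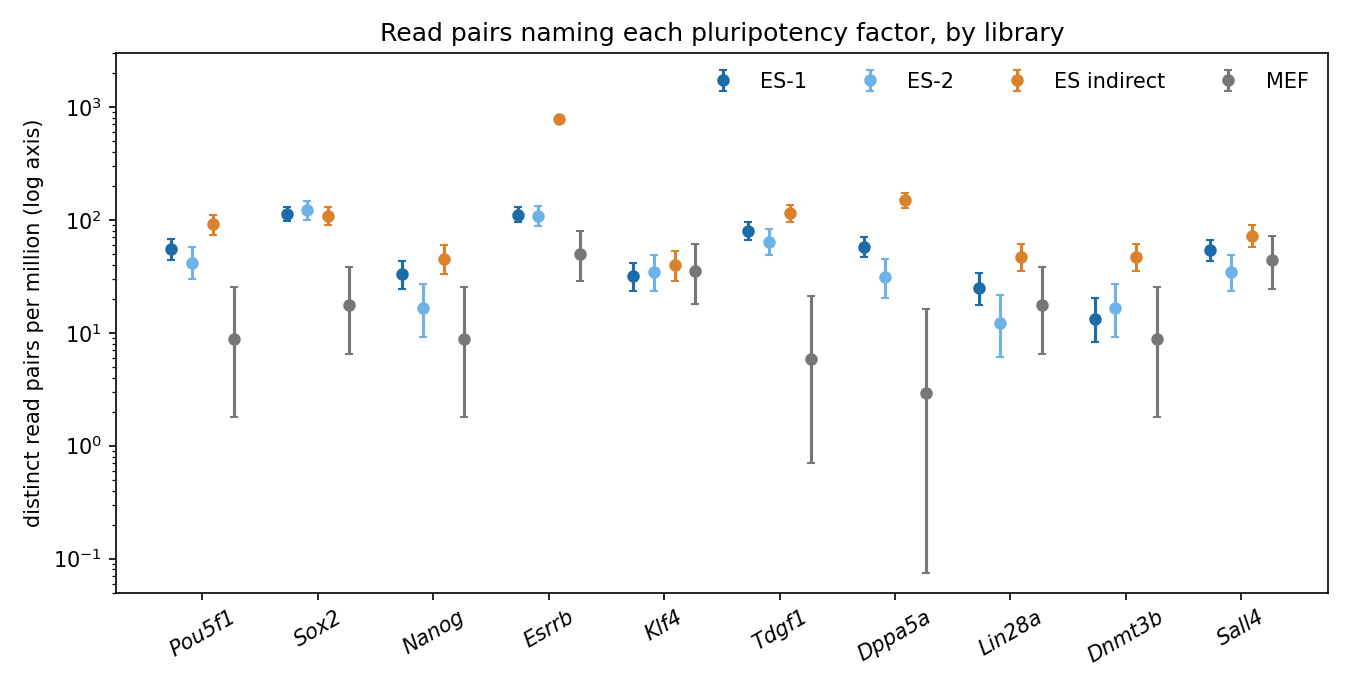
Distinct read pairs of each of the 10 genes in ppm of distinct read pairs with a non-ribosomal end (log axis), by library; points are single libraries and bars are exact Poisson 95% intervals. Esrrb in ES indirect, at 782, is the highest point, and the MEF point lies below all 3 ES points for Pou5f1, Sox2, Nanog, Esrrb, Tdgf1, Dppa5a and Dnmt3b but not for Klf4, Sall4 or Lin28a.

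To set the genes beside each other, levels were taken per length, as placed sense ends per kilobase of the longest annotated spliced mRNA and ppm of read pairs. In ES-1 and ES-2 these were 90.0 and 42.7 for Dppa5a, 48.7 and 46.6 for Sox2, 40.4 and 29.4 for Pou5f1, 30.6 and 20.03 for Tdgf1 and 20.3 and 15.4 for Esrrb. The values of Dppa5a and Sox2 overlapped between libraries, as did those of Pou5f1 and Tdgf1 and those of Tdgf1 and Esrrb. Next came Nanog with 14.03 and 7.47, Sall4 with 10.2 and 5.43, Klf4 with 9.79 and 8.70 and Lin28a with 6.68 and 2.83, whose order was not the same in both libraries. Dnmt3b, at 1.47 and 1.02, was the lowest in both. In ES indirect Dppa5a was first, with 254, followed by Pou5f1 with 85.5, Sox2 with 56.0 and Esrrb with 44.98, and Dnmt3b was last with 5.41. The high read count of Esrrb in that library therefore did not stand out on its spliced mRNA.

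The next comparison asked how far these read pairs separate ES cells from fibroblasts. A gene was counted as higher when its level exceeded that of MEF by more than 2-fold in both ES-1 and ES-2. Of the 10 members 5 met this, Pou5f1, Sox2, Esrrb, Tdgf1 and Dppa5a, and none was lower by the same rule. Among all 12538 protein-coding genes with enough read pairs to enter, 8.01% were higher and 25.1% lower. The median fold of the members was 3.01 (ES-1) and 2.03 (ES-2), with 0.543 and 0.756 over all genes.

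Of the 3 factors at the centre, Pou5f1 was 6.30-fold higher in ES-1 (exact conditional 95% interval 2.085–31.1), 4.79-fold in ES-2 (1.52–24.2) and 10.4-fold in ES indirect (3.46–51.2). Sox2 was 6.44-fold (2.90–17.8), 6.93-fold (3.08–19.3) and 6.17-fold (2.75–17.2) higher. Nanog was 3.76-fold higher in ES-1 (1.22–18.8), while its interval in ES-2 included no difference (1.89, 0.534–10.2), and it was 5.14-fold higher in ES indirect (1.66–25.8). For Esrrb the folds were 2.25 (1.37–3.95), 2.18 (1.29–3.89) and 15.8 (9.79–27.2). These count intronic and antisense ends named Esrrb as well. By placed sense exonic ends Esrrb stood at 1070 ppm of such ends in ES-1, 1126 in ES-2 and 1256 in ES indirect. Dppa5a and Tdgf1 had folds of 19.8 and 13.7 in ES-1 and 10.6 and 10.96 in ES-2, but against 1 and 2 MEF read pairs their intervals ran from 3.46 to 789 and from 3.71 to 114 in ES-1. The Tdgf1 folds include its ends that held ribosomal sequence, 1 of them in MEF. The intervals of Klf4 included no difference, with folds of 0.905 (0.475–1.87), 0.976 (0.487–2.09) and 1.13 (0.587–2.35). So did those of Sall4, with 1.23 (0.706–2.30) in ES-1 and 0.781 (0.409–1.56) in ES-2, Lin28a, with 1.41 (0.593–4.08) and 0.693 (0.235–2.28), or Dnmt3b, with 1.52 (0.454–7.96) and 1.89 (0.534–10.2). For Lin28a and Dnmt3b only the ES indirect intervals left out no difference, with folds of 2.67 (1.15–7.62) and 5.35 (1.73–26.8). These intervals cover counting error only, between 1 library and 1 other. The folds of the uncalled members moved both ways with the choice of read pairs and names, on few MEF read pairs. Sall4 had 4.45 (0.775–178) and 2.90 (0.464–120) against 1 MEF read pair when both ends had to lie on their stated position, but 0.470 (0.217–1.21) and 0.415 (0.173–1.14) against 7 with fragments of at least 20 nt and no linker. Lin28a had 5.23 (0.831–217) and 3.11 (0.399–140) against 1 in the larger flow cell of each library, but 0.593 (0.216–2.02) and 0.228 (0.0452–1.06) against 5 in the smaller. Dnmt3b had 4.13 (0.656–171.5) and 3.78 (0.5375–164) against 1 with strand-aware GENCODE names, but 0.370 (0.0871–3.32) and 0.363 (0.0649–3.68) against 2 with the longer fragments. Klf4 had 0.340 (0.144–0.975) and 0.484 (0.193–1.45) against 6 with the longer fragments. Of these intervals only that of Klf4 in ES-1 left out no difference. The GENCODE names left Sox2 and Pou5f1 1 MEF read pair each, with ES-1 intervals of 6.73 to 1510 and 3.30 to 755, and Dppa5a none. With both ends on position the ES-1 intervals of Pou5f1 (0.785–180), Dppa5a (0.745–171) and Sox2 (0.990–14.4) included no difference. Those of Tdgf1 (1.15–261) and Esrrb (1.53–345) did not. With fragments of at least 20 nt those of Pou5f1 (0.613–141), Tdgf1 (0.721–165) and Dppa5a (0.613–141) included it, and those of Sox2 (1.25–282) and Esrrb (1.28–287) did not. The folds of Esrrb moved both ways. They stayed under 2 over all distinct read pairs (1.68 and 1.74), over sense exonic ends (1.48 and 1.27) and for the smaller flow cell (1.44 and 1.34). With the GENCODE names, which left Esrrb 7 MEF read pairs, they rose to 4.72 (2.23–11.93) and 4.10 (1.90–10.55). On only 1 MEF read pair, both ends on position gave 8.67 and 9.72, and the longer fragments 7.22 and 7.50.

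The 68 MEF read pairs were then read one by one. In 49 of them the member end was not on its stated position, in 15 it held a piece of the linker, in 12 it was under 20 nt, and in 35 both fragments shared 14 bases. All 12 Klf4 read pairs of MEF fell to these criteria, 11 of them for position, and 6 of the 12 had the same start. So did all those of Pou5f1, Nanog, Tdgf1, Dppa5a, Lin28a and Dnmt3b. Such loss was not particular to the members, since only 5.78% of the MEF ends of all protein-coding genes met these criteria, the ribosomal one left aside. The member end was placed in 4 read pairs, 2 of Esrrb, 1 of Sox2 and 1 of Sall4. When only placed sense exonic ends were counted, relative to all such ends of protein-coding genes and without the ribosomal 16-mer filter on either side, the members held 825 of 130833 for ES-1, 341 of 54181 for ES-2, 1073 of 201381 for ES indirect and 3 of 5285 for MEF. These are 6306, 6294, 5328 and 568 ppm, and the folds against MEF were 11.1 (3.79–54.0), 11.1 (3.76–54.0) and 9.39 (3.20–45.6). Klf4 then counted 48, 25, 55 and 0 ends, and Sall4 83, 25, 86 and 1. For single members MEF held too few placed ends for a fold, since 3 counts there are worth 568 ppm, more than the ES level of Nanog, Klf4, Lin28a or Dnmt3b.

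Other genes of the network were counted by the same rule. Of a list of 44 genes tied to pluripotency, not counting the members, 40 entered the comparison, 12 were higher and 2 lower, with median folds of 1.42 and 1.79. Tet1, which oxidises methylcytosine, gave 243, 118, 669 and 20 read pairs and was 2.64-fold and 2.23-fold higher. Cdh1, the epithelial cadherin, gave 194, 91, 330 and 9 and was 4.68-fold and 3.82-fold higher. Jarid2, a partner of Polycomb repressive complex PRC2, gave 177, 104, 993 and 22, and its folds of 1.75 and 1.79 stayed under the threshold. Epcam gave 73, 331, 63 and 51 and Klf5 71, 185, 116 and 25, and for both only ES-2 exceeded 2-fold. In ES-1 and ES indirect Epcam was lower than in MEF, at 0.311-fold and 0.381-fold, and Klf5 stood at 0.617-fold and 1.43-fold. Of 30 fibroblast markers 24 entered, none was higher and 14 were lower in both ES libraries. Their summed level was 595, 606 and 623 ppm in the 3 ES libraries and 2662 in MEF, with Col1a1 at 8, 4, 6 and 180 read pairs. Fn1, the gene of fibronectin, went the other way with 564, 238, 337 and 82, folds of 1.49 and 1.10, and made up 357 of the 595 ppm of ES-1. Fstl1 was 0.869-fold in ES-1 and 3.15-fold in ES-2. Of 15 markers of differentiated cells 9 entered, none was higher and 3 were lower, beside 8.01% and 25.1% over all genes. The 15 summed to 73.5, 133, 112 and 399 ppm, with Pax6 giving 204 of the 399 in MEF. Others leaned the opposite way in ES-1 and ES-2, Cdx2 with folds of 1.58 and 1.32 and Sox7 with 1.81 and 1.26. Nes was 0.543-fold in ES-1 and 3.40-fold in ES-2.

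The ends of the members lay mostly in exons, untranslated regions (UTRs) included, in ES-1 and ES-2 but not in ES indirect or MEF. By the deposited annotation 88.5% (Wilson 95% interval 86.3–90.3) of member ends were exonic in ES-1, as were 85.0% (81.4–88.0) in ES-2, compared with 42.9% and 37.4% of the ends of all protein-coding genes. Restricting all genes to ends on their stated position, without linker and of at least 20 nt raised their exonic shares to 59.1% and 61.1%, which stayed below those of the members. In ES indirect 47.3% (45.3–49.3) of member ends were exonic, and 22.6% of all, and in MEF 44.3% (33.3–55.9) and 17.8%. Esrrb, 19.4% exonic, held 1343 of the 2340 member ends of ES indirect. Of the others there, Dnmt3b was 46.3% exonic and Tdgf1 66.4%, and the rest ranged from 72.2% to 100%. In MEF only 6 of the 70 member ends were placed. Exonic ends of the members were on the sense strand in 98.9% (98.0–99.5) of cases in ES-1, 94.7% (92.0–96.6) in ES-2 and 99.2% (98.5–99.6) in ES indirect, against 84.8%, 67.0% and 88.3% over all genes. Among placed exonic ends the sense shares were 99.6%, 97.7% and 99.4% for the members, and 96.5%, 91.2% and 92.0% over all genes with ends on position, without linker and of at least 20 nt. In MEF only 17 of 31 exonic member ends, 54.8% (37.8–70.8), were sense, beside 55.3% over all genes.

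Members differed in this. All ends of Sox2 and of Dppa5a were exonic in the ES libraries, and of Pou5f1 98.9%, 100% and 98.5%; Sox2 has no intron. Sall4 was 96.7%, 87.1% and 76.7% exonic in ES-1, ES-2 and ES indirect, Klf4 98.1%, 84.9% and 92.2%, Nanog 94.6%, 93.8% and 79.0%, and Lin28a 95%, 81.8% and 72.2%. Dnmt3b had 11 of 22 ends in introns in ES-1, 3 of 15 in ES-2 and 36 of 67 in ES indirect, though in ES-1 only 15 of its ends were placed and 5 held ribosomal sequence. Esrrb was intronic in 28.1% and 33.0% of ends in ES-1 and ES-2 and in 80.6% in ES indirect, or 1082 of 1343. Esrrb alone thus supplied 1082 of the 1233 intronic member ends of that library.

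Along the spliced mRNAs the placed sense ends were not spread evenly. On Sox2 the coding part held 140 ends per kb and the 3′ UTR 27.6 in ES-1. The same parts held 83.6 and 14.7 in ES-2, and 110 and 24.8 in ES indirect. Klf4 and Sall4 were also denser in the coding part: Klf4 with 26.0 against 4.05 ends per kb in ES-1 and 32.4 against 5.07 in ES indirect, Sall4 with 21.2 against 7.65 and 20.6 against 10.6. In ES-2 the same 2 genes gave 11.95 against 0 and 6.87 against 1.77. Lin28a had 35 of its 37 ends in the 3′ UTR in ES-1, 6 of 9 in ES-2 and 39 of 52 in ES indirect. Its 3′ UTR is 2778 of 3505 nt, and per kb the 3′ UTR exceeded the coding part in ES-1 alone, with 12.6 against 1.60, while ES-2 gave 2.16 against 4.79 and ES indirect 14.04 against 19.1. Esrrb had 35.8 ends per kb in the coding part and 35.5 in the 3′ UTR for ES-1. Its other libraries leaned different ways, with 22.8 and 11.7 for ES-2 but 39.6 and 63.5 for ES indirect. Dppa5a was dense throughout its 619 nt, with 142 ends per kb in ES-1, 38.8 in ES-2 and 283 in ES indirect.

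**Figure D2:**
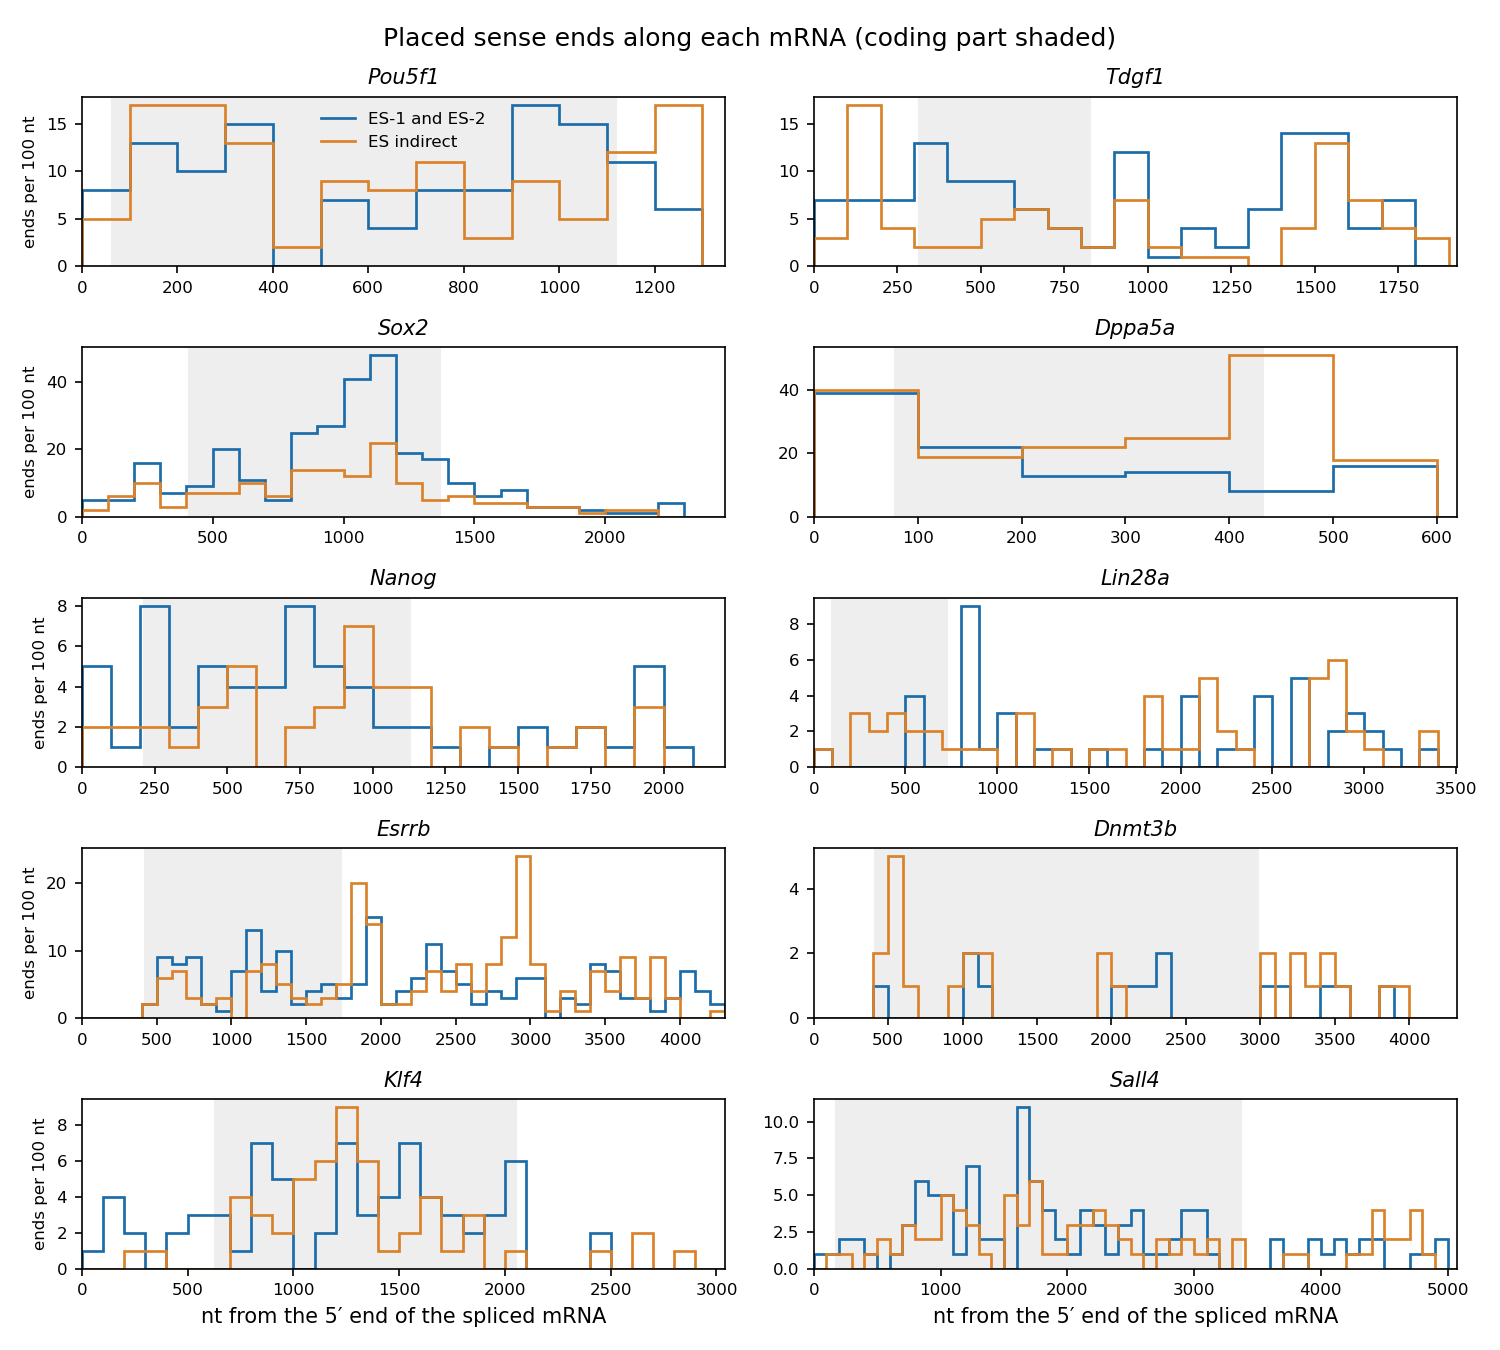
Placed sense ends in windows of 100 nt along the longest annotated spliced mRNA of each gene, for ES-1 and ES-2 summed (blue) and for ES indirect (orange), with the coding part shaded. The shaded part of Sox2 holds most of its ends, and most ends of Lin28a lie to the right of the shaded part.

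The strand of the Esrrb ends changed at an internal start of the gene. Transcript Esrrb-005 begins at position 87811067 of chromosome 12, while longer transcripts of the annotation begin at 87702067, 87762594 and 87762833. The start of Esrrb-005 was chosen as the dividing point after the positions of the ends had been seen. In ES indirect 250 of the 260 placed intronic ends upstream of it were antisense (96.2%), and 13 of the 799 downstream (1.63%). Downstream, 253 of 254 exonic ends were sense. Of the upstream ends 179, and of the downstream intronic ends 590, belonged to read pairs with both fragments inside Esrrb. ES-1 showed the same split on fewer ends, with 14 of 17 upstream antisense and 0 of 23 downstream, where a count of 0 allows up to 3. In ES-2 both upstream intronic ends were antisense and 1 of 12 downstream. The antisense ends carry the name Esrrb because the deposited annotation gave names without regard to strand.

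**Figure D3:**
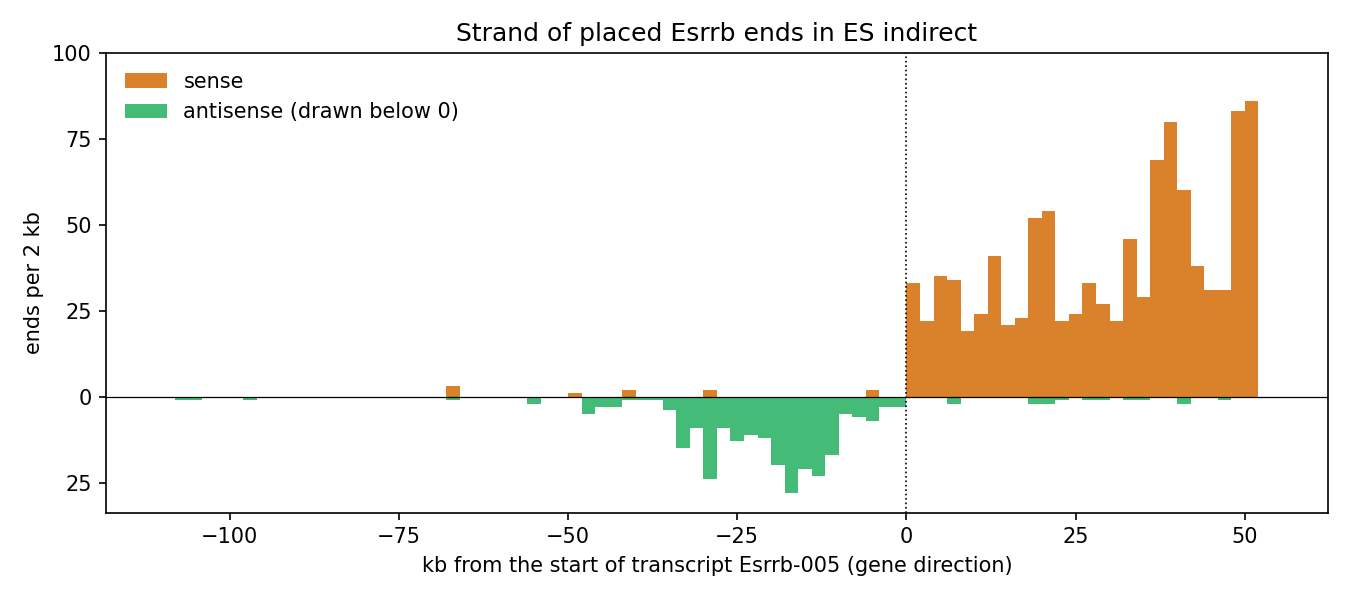
Placed Esrrb ends of ES indirect per 2 kb, sense above and antisense below 0, by distance in kb from the start of Esrrb-005 in the direction of the gene. Antisense ends fill the stretch to the left of the start, where 250 of 260 intronic ends are antisense, and sense ends the stretch to the right.

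Intronic ends of Tdgf1 were for the most part 1 short sequence in ES-1 and ES-2, though not in ES indirect. For ES-1 26 of its 35 intronic ends, for ES-2 16 of 19, for ES indirect 10 of 49 and for MEF 1 of 2 were fragments of at most 22 nt over the same 16 bases (chr9:110847766-110847781, minus strand, NCBIM37). The sequence is shown because it was also found inside longer ribosomal fragments, of at least 30 nt: 319 such fragments held it in ES-1, 117 did so for ES-2, 1976 for ES indirect and 22 for MEF.
Tdgf1 intron: cgtggagccgggcgtc
Whether these ends came from Tdgf1 or from ribosomal RNA cannot be told apart from their bases. Placed sense intronic ends of Tdgf1 numbered 9 in ES-1, 5 in ES-2 and 37 in ES indirect.

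In the ultraviolet-crosslinked ES libraries ribosomal RNA was the most frequent class at the other end of the members' read pairs. In ES-1 459 of the 905 read pairs (50.7%) joined a member to ribosomal RNA, 162 (17.9%) to a small nucleolar RNA (snoRNA), 94 (10.4%) to another protein-coding gene and 67 (7.40%) to the same gene. ES-2 gave 213 of 435 ribosomal (49.0%), 46 snoRNA (10.6%), 63 protein-coding (14.5%) and 12 within the same gene (2.76%). Counted by exonic end, so that a within-gene read pair can count at both ends, the members had 45.9% (395 of 860) and 46.3% (176 of 380) ribosomal partners for ES-1 and ES-2, beside 51.7% and 55.2% for all protein-coding genes, and 17.1% and 10.8% snoRNA partners, beside 19.7% and 9.32%. Within-gene ends made up 13.95% and 5.79% of these for the members and 8.54% and 2.53% for all genes. ES indirect had 437 ribosomal (26.3%), 8 snoRNA (0.482%) and 680 within-gene read pairs (41.0%) of 1660. By exonic end these were 25.8%, 0.361% and 45.4% of 1107 for the members and 24.1%, 0.626% and 45.8% for all genes. In MEF, also irradiated with ultraviolet light, 13 of 68 partners were ribosomal (19.1%) and 24 were other protein-coding genes (35.3%), the most frequent class there. Over the exonic ends of all genes in MEF these classes took 18.1% and 36.2%.

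By member the ribosomal share in ES-1 ran from 6 of 21 for Dnmt3b to 73 of 126 for Tdgf1. Of the ends named for these 2 members, 5 of 22 and 26 of 130 themselves held ribosomal sequence there. SnoRNA partners, which guide the modification or cutting of ribosomal RNA, made up 37 of 176 read pairs of Esrrb, 23 of 126 of Tdgf1, 22 of 178 of Sox2, 21 of 85 of Sall4, 14 each of Pou5f1 and Dppa5a, and 12 of 52 of Nanog in ES-1. In ES indirect 7 members had none, while Esrrb had 4, Dppa5a 3 and Sox2 1. Among ribosomal partners of exonic member ends in ES-1 251 of 395 were 28S (63.5%, 58.7–68.1) and 120 were 18S (30.4%, 26.1–35.1), close to the 65.5% and 31.0% over all mRNAs. In ES-2 28S made up 132 of 176 (75%) and over all mRNAs 72.0%. In ES indirect 113 of 286 (39.5%) carried the name of the 45S precursor, a name no ribosomal partner of these ends had in ES-1 or ES-2, and over all mRNAs the share was 39.3%. Of the snoRNA partners of exonic member ends 110 of 147 in ES-1 (74.8%, 67.2–81.2) and 31 of 41 in ES-2 (75.6%, 60.7–86.2) were of the H/ACA class, which guides pseudouridylation, and 26 and 7 of the C/D class, which guides methylation of the ribose. Over all mRNAs H/ACA made up 78.2% and 75.04%. The classes were read from the names, and the 11 and 3 member partners with other names, such as U3, were put in neither.

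**Figure D4:**
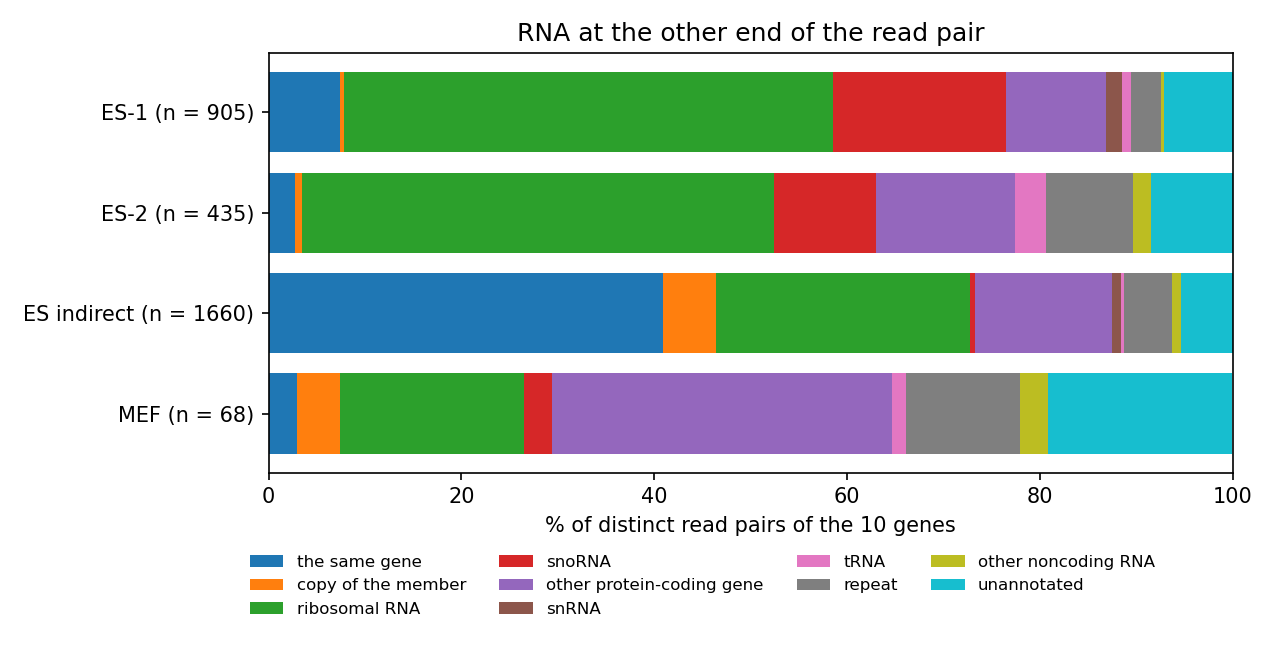
Share of the distinct read pairs of the 10 genes, in percent, by the RNA at the other end, in ES-1 (n = 905), ES-2 (n = 435), ES indirect (n = 1660) and MEF (n = 68). Ribosomal RNA takes 50.7%, 49.0%, 26.3% and 19.1%, and the same gene 7.40%, 2.76%, 41.0% and 2.94%.

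Read pairs with both fragments in the same gene made up a higher share in ES indirect than in ES-1 and ES-2 for all 10 members, and for 7 of them its Wilson interval lay above both others. The intervals overlapped for Nanog and Dnmt3b with both libraries and for Dppa5a with ES-2. The same order of libraries held over the exonic ends of all protein-coding genes, with 45.8% in ES indirect, 8.54% in ES-1 and 2.53% in ES-2. How many single genes had such separate intervals was not counted, so the 7 cannot be set against other genes. The share of the members in ES indirect ran from 8.49% for Dppa5a (14 of 165) and 14% for Nanog (7 of 50) to 45% for Sall4 (36 of 80), 45.5% for Klf4 (20 of 44) and 54.6% for Esrrb (474 of 869). Between these were Tdgf1 with 15.0%, Dnmt3b with 28.9%, Sox2 with 32.5%, Pou5f1 with 35.6% and Lin28a with 38.5%. Partner fragments named otherwise that also lay on the member's own mRNA, described further on, are not in these shares. With them Dppa5a came to 66 of 165 (40%, 32.8–47.6), Pou5f1 to 50 of 101 (49.5%, 39.95–59.1) and Tdgf1 to 33 of 127 (26.0%, 19.1–34.2), and Nanog, with 9 of 50 (18%), became the lowest. In ES-1 the highest shares were 13.1% for Esrrb (23 of 176) and 12.9% for Sox2 (23 of 178), and Dppa5a had 0 of 91, which allows up to 3 read pairs. In ES-2 Sox2 had 5 of 110 and 5 of the 10 members had none.

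An RNA2 upstream of RNA1 shows that the fragments were cut and joined, from the same molecule or from separate molecules of the gene. The opposite order does not tell, because cut and uncut RNA can both give it. Of the 680 within-gene read pairs of ES indirect 587 had both fragments sense, 242 of these with both ends in exons and 330 with both in introns, 295 of them of Esrrb. Of the 587, 212 overlapped on the genome, 285 had RNA1 upstream of RNA2, and 90 had RNA2 upstream, an order that an uncut RNA cannot give. The reversed pairs lay a median of 228 bases apart, 37 of them had both ends in exons, and 53 were of Esrrb, 9 of Sox2, 5 each of Tdgf1, Dppa5a, Lin28a and Sall4, 4 of Pou5f1, 3 of Dnmt3b and 1 of Nanog. The reversed pair of Nanog lay 6260 bp apart on the genome, introns included. In ES-1 5 of 65 sense pairs and in ES-2 2 of 10 were reversed.

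**Figure D5:**
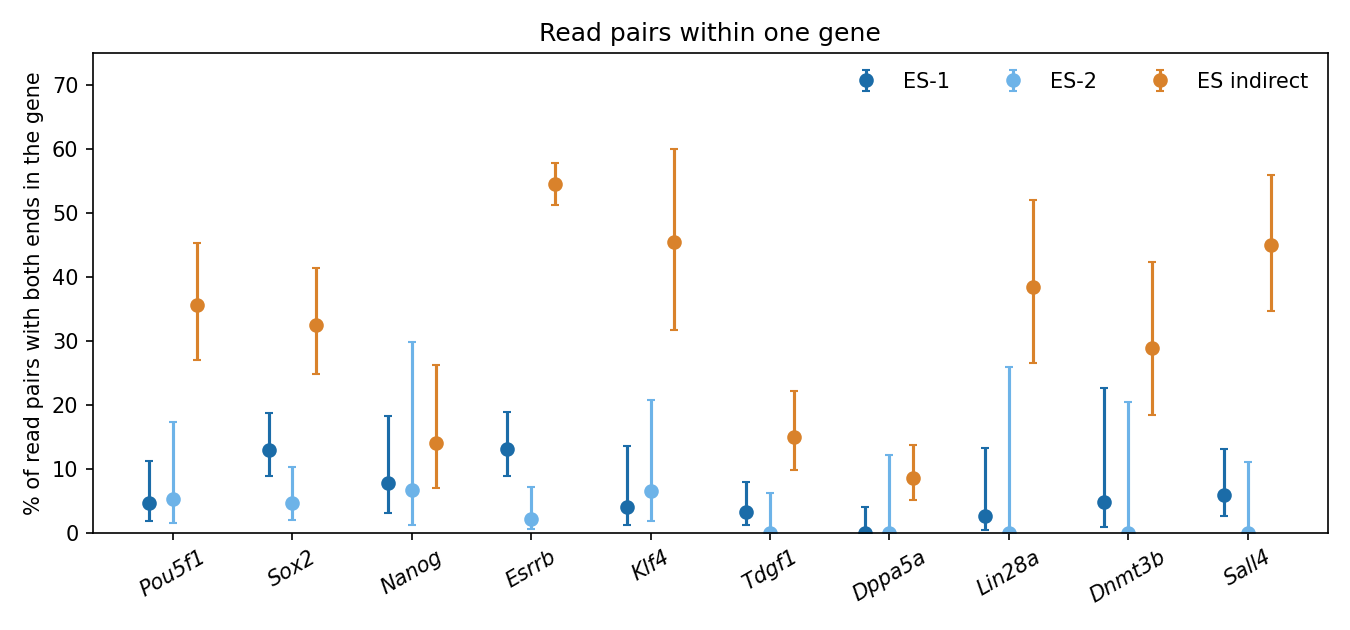
Share of read pairs with both fragments in the same gene, in percent of that gene's distinct read pairs, for each member in ES-1, ES-2 and ES indirect; bars are Wilson 95% intervals. The ES indirect point is the highest for all 10 members, at 54.6% for Esrrb and 8.49% for Dppa5a, which rises to 40% when partner fragments that lie on the Dppa5a mRNA are added.

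In some apparent contacts between different genes the partner fragment, placed elsewhere in the genome, also lay on the member's own mRNA. Pou5f1 was joined to Rfwd2, which encodes a ubiquitin ligase, by 3 read pairs of ES-1, 9 of ES indirect and 1 of MEF, with 0 of ES-2. The Rfwd2 ends covered 361 nt of an intron (chr1:161223938-161224298), and this stretch was identical to nucleotides 961 to 1321 of the 1347-nt Pou5f1 mRNA. All 13 read pairs could therefore equally be 2 fragments of Pou5f1 mRNA, and in 5 both fragments shared 14 bases.

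Dppa5a had 52 such read pairs of its 165 in ES indirect, 34 at places without annotation, 8 at Pigp, which encodes a subunit of the enzyme that begins synthesis of the GPI anchor, 6 at Dppa5b and 3 at Gm10112. The partner fragments lay on the Dppa5a mRNA with a median of 0 edits and on their stated place with 3, 38 of 52 had fewer edits on the mRNA and 0 had more, and 36 crossed a splice junction of Dppa5a. With both ends laid on the Dppa5a mRNA, which was possible for 49, the median gap between them was 3 nt. The stretch of 30 bases around a Dppa5a junction (chr9:78215528-78215542 joined to chr9:78215087-78215101, minus strand, NCBIM37) and its counterpart in Pigp (chr16:94580592-94580621, minus strand) show how close the copies are. Capitals mark the 3 bases that differ.
Dppa5a mRNA: tgcGccagcaaaAAggagtgctgaagctgg
Pigp copy: tgcAccagcaaaGTggagtgctgaagctgg
Of 7 fragments named Pigp that covered the differing bases, 6 carried those of Dppa5a and 0 those of Pigp.

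Contacts with a particular other RNA were tested by a one-sided Fisher's exact test on distinct read pairs between RNAs that were not ribosomal, with Benjamini-Hochberg adjustment over all pairs of RNAs seen and at least 3 distinct read pairs. The unit of this test is the read pair, so its p carries no replicate error. In ES-1 and ES-2 merged, 5 of the 429 pairs that held a member were called, against 0.895% of all 227775. In ES-1 alone 3 of 280 were called (background 1.09%), for ES-2 1 of 164 (0.719%), for ES indirect 6 of 339 (2.54%) and for MEF 0 of 38 (0.842%), where the most read pairs any partner had was 2. Lines with equal coordinates may differ in the random barcode by which duplicates were removed, and when each was counted the merged calls numbered 40. No read pair joined one member to another.

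The Sall4 mRNA and Snora73a, an H/ACA snoRNA with a part in 18S ribosomal RNA processing, were joined by 4 read pairs of ES-1 and 1 of ES-2, when their totals predicted 1.10 (Fisher's exact test, adjusted p = 0.0310). All 5 had both ends placed and the 5 Sall4 fragments were different. Up to 30 bases of each, from the end joined to the linker, are shown because no 2 of these stretches overlap (NCBIM37, minus strand, in the order chr2:168574396-168574417, chr2:168592428-168592457, chr2:168580786-168580815, chr2:168580861-168580890 and, from ES-2, chr2:168575213-168575242).
Sall4 3′ UTR, ES-1: aaagtcttctctattttgctat
Sall4 exon, ES-1, site 1: ctaccgagccccgacctcgccgaggcgctg
Sall4 exon, ES-1, site 2: ataatcccccaaaggctgggggcttccagg
Sall4 exon, ES-1, site 3: tgcccaatgacatgcagccagggccttctc
Sall4 3′ UTR, ES-2: taaaccattttggaaagaagcgggttttga
The Sall4 ends joined to the linker thus lay at separate sites in exons and the 3′ UTR. By the same exact test the call did not hold without ES-1 (adjusted p = 0.251) or without ES-2 (adjusted p = 0.0643), nor when read pairs with a ribosomal end were included (adjusted p = 0.113).

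Klf4 and U1, the small nuclear RNA that pairs with 5′ splice sites, were joined by 5 read pairs, all of ES-1 (predicted 0.635, Fisher's exact test, adjusted p = 0.0104). They used only 2 Klf4 fragments, 1 in the 3′ UTR and 1 in an exon. Shown are 30 bases of each from the end joined to the linker (chr4:55541026-55541055 and chr4:55543097-55543126, minus strand, NCBIM37). Below them are the first 30 bases of the U1 fragment of 1 of these read pairs (chr12:55811297-55811326, plus strand). Capitals mark the U1 bases that pair with the splice site. They do not mark where U1 was joined, because this fragment was an RNA1 and its joined end was its 3′ end.
Klf4 3′ UTR: gtgacagggccttttccaggtcggaccacc
Klf4 exon: cggtccctagaggcccatttgagcgctgga
U1: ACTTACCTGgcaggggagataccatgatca
Counting read pairs with an equal fragment on either side once ended this call (Fisher's exact test, adjusted p = 0.158). U1 sequence stands at several places in the genome under 1 name.

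Sox2 was called with Gm16742 (3 read pairs, all of ES-2, adjusted p = 0.00422) and with tRNA-Trp-TGG (3 read pairs, all of ES-1, adjusted p = 0.00900), both by Fisher's exact test. In ES-2 392 of 429 Gm16742 ends began within 5 bases of 1 position, and of the tRNA read pairs none had both ends placed. By the same exact test the Gm16742 call was lost in the larger flow cell (adjusted p = 0.0956), with GENCODE names and with equal fragments counted once, and the tRNA call in the larger flow cell (adjusted p = 0.159), with both ends on position (adjusted p = 0.117), with fragments of at least 20 nt and with equal fragments counted once. Pou5f1 with Rfwd2 (3 read pairs, adjusted p = 1.15e-06, Fisher's exact test) was the copy described above. In ES indirect Dppa5a was called with Pigp, Dppa5b and Gm10112, Pou5f1 with Rfwd2, and Tdgf1 with the repeat PB1D9 (5 read pairs, all on the Tdgf1 mRNA as well) and with Usp28 (3 read pairs, 1 with both ends placed). Of these 6 calls, 5 were thus largely or wholly copies.

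Partners seen in at least 2 of the 4 libraries, whether called or not, numbered 31 of 791 (3.92%), and 15 (1.90%) were in both ES-1 and ES-2. Over all protein-coding genes the shares were 4.41% and 1.49% of 510932 partners, and over the 4906 genes with at least 91 distinct read pairs, the count of the least seen member, 5.48% and 1.90%, shares near those of the members. With both ends placed they were 13 and 10. Esrrb had 12 of the 31, Pou5f1, Sox2 and Tdgf1 4 each, Sall4 3, Klf4 and Dppa5a 2 each, and Nanog, Lin28a and Dnmt3b none. Besides Snora73a, Sall4 shared Snora81 (3 read pairs of ES-1 with 1 of ES-2, the 3 from 1 Sall4 fragment) and SNORA81 (1 and 1) between ES-1 and ES-2. Tdgf1 met Snora81 in 5 read pairs of ES-1 and 1 of ES-2, all 6 placed and from 5 Tdgf1 fragments, and SNORA3 and GC_rich repeats in 1 and 1 and in 1 and 2, and the repeat L1Md_T in 1 of ES-1 and 1 of ES indirect. Dppa5a met SNORA4 and SNORA57 in 1 read pair each of ES-1 and ES-2. Sox2 met Snora81 in 1 read pair each of ES-1 and ES-2, both placed, Snora73b in 1 and 1, of which 1 was placed, and SNORA63 in 1 of ES-1 and 1 of ES indirect, both placed, while its 3 read pairs with Fhit (1 in ES indirect, 2 in MEF) were not placed. Esrrb met U1 in 1 read pair of ES-1 and 6 of ES indirect, all placed and from 4 Esrrb fragments, the repeat B4A in 5 read pairs, 4 of ES indirect and 1 of MEF with none placed, and the repeat B3 in 4, of which 3 were placed. Its partners placed in both ES-1 and ES-2, named after their values were seen, were Snora73a (1 and 2 read pairs), SNORA57 (1 and 2, 2 of them placed), SNORD26 and Snora24 (1 and 1 each). For Klf4 the shared partners were RMER16-int and tRNA-Met_, 2 read pairs each and none placed, and for Pou5f1, besides Rfwd2, the repeats B4A, L1M4 and L1Md_T, likewise 2 each and none placed.

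Genes with levels most like those of the members were sought by distance between log2 levels, with 1 ppm added, and the mean of the members over the 4 libraries, which sets apart genes by height of level and by length as well as by ratio between libraries. Nearest among 11358 genes was Ep300, a histone acetyltransferase, with 71, 33, 99 and 5 read pairs and a distance of 0.0946. Ipo5, Dag1, Eprs and Fzd5 followed at 0.403 to 0.431. The members themselves lay between 0.703 and 4.04 from their own mean.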

How the data were processed

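MARIO read pairs of both ES libraries, ES indirect and MEF were analysed; the brain libraries were not used here. In the deposited files a line stands for 1 read pair, with other columns for the positions, strands, sequences and annotated names that the authors gave to RNA1 and RNA2, and without any measurement. Per the labels and the study's methods, the authors removed duplicates (equal positions and random barcode), located the linker and kept molecules with both fragments mapped to mm9; the submitters' processing notes name TopHat2 2.1.1 and NCBIM37. The members and the gene lists were chosen with earlier results of these data known. Read pairs with equal coordinates of both ends were counted once, which can merge molecules whose barcodes differed. ES-1 held 3230403 read pairs, ES-2 1312314, ES indirect 3302146 and MEF 474526, of which 1579349, 907870, 1111614 and 342995 distinct ones had a non-ribosomal end and served as denominators. Sequences were compared with NCBIM37 using pysam 0.24.0 and edlib 1.3.9.post1, strand and mRNA positions came from GENCODE vM1, and tests and intervals used scipy 1.17.1. A library at 0 was set to a floor of 3 counts. Genes needed 10 read pairs to enter the ES against MEF comparison. Each library came from 2 flow cells, named in the read names: ES-1 and ES-2 shared 2, and ES indirect and MEF 2 others. With the partners of merged ES-1 and ES-2 shuffled, the Fisher's exact test still called 193 of 240457 pairs (0.0803%). All pairs planted in such data were called, but none held an RNA as abundant as U1 or Snora73a. Named were all members, up to 3 partners each seen in 2 or more libraries, and called partners; further partners of Sox2, Pou5f1, Tdgf1 and Esrrb were named after their values were seen. Alternatives covered collapse, fragment quality, annotation, flow cell, single libraries, denominators, thresholds and copies.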

Additional observations from a re-analysis of the deposited data

How the results depend on the processing

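Folds of the 5 uncalled members crossed 1 under some alternatives, and counts of partners rested on few read pairs. Partners called in merged ES-1 and ES-2 numbered 5, and 40 when every deposited line was counted, 9 with at least 2 distinct read pairs, 3 with strand-aware GENCODE names, 2 with equal fragments counted once, 1 in the larger flow cell of each library and 0 in the smaller. Leaving out ES-1 or ES-2 gave 1 to 3. Partners in 2 or more libraries numbered 31, and 18 with both fragments of at least 20 nt and no linker piece, 17 with GENCODE names, 11 and 8 in the larger and smaller flow cell, and 10 to 13 without ES-1 or ES-2. Within-RNA read pairs of the ES libraries numbered 759, 3111 without collapse and 121 with only reversed or over 2000 bp apart. The mean level of the members in ES-1 and ES-2, 526 ppm, became 600.5 with fragments of at least 20 nt, 627 with both ends on position, 371 over all distinct read pairs, 4924 over sense exonic ends and 6300 as placed sense exonic ends. Their mean exonic share, 86.7%, became 92.1% with fragments of at least 20 nt, 89.4% with GENCODE names and 89.3% without ribosomal sequence. By the fold alone, whatever its interval, members higher than MEF numbered 5, and 7 without collapse, 6 with both ends on position, with GENCODE names, in the larger flow cell or without ES-2, 4 with either other denominator or at 4-fold, and 3 in the smaller flow cell, where Pou5f1 and Esrrb dropped out. By placed ends they were 3 (Sox2, Esrrb and Sall4), the members with 1 end in MEF; those with 0 were set to the floor of 3 counts, and all stayed under 2-fold. Klf4 was higher under none of these and over 2-fold lower with fragments of at least 20 nt, and the ES-1 fold of Nanog turned to 0.988 in the smaller flow cell, against 3 MEF read pairs. With fragments of at least 20 nt, both ends on position or placed ends Nanog had 0 in MEF. Its ES-1 ratios to the floor of 3 counts were then 0.695, 0.874 and 0.660. The exact ES-1 intervals ran from 0.542, 0.683 and 0.517 with no upper limit. The causes of these changes were not tested. No paired analysis was possible because no comparison between groups came from a test, and ES indirect and MEF have 1 library each. Folds rest on 1 to 17 MEF read pairs a member, and 6 of 70 member ends there were placed.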
